A study of Mus musculus with 17 samples.

Results

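The genes described here encode 8 feedback inhibitors of receptor tyrosine kinase signalling: Errfi1, Spry1, Spry2, Spry4, Spred1, Spred2, Phlda1 and Phlda3. They were taken by name, and every probe set that the platform annotation assigns to exactly 1 of these genes was used. A probe set is a group of short probes designed against a transcript, and some can match several. The 8-array table holds 14 such probe sets for all 8 genes, of 12393 genes in that table. The 9-array table holds 6 probe sets for 5 of them (Errfi1, Spry4, Spred2, Phlda1 and Phlda3), of 8251 genes. After the lowest 30% of probe sets by mean signal were left out, 17 of the 20 member probe sets remained. The 3 that did not pass were both Spry4 probe sets of the 8-array table and the dimmer of the Spred2 probe sets there, so 7 genes were tested in the 8-array table and 5 in the 9-array table.

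When a growth factor activates its receptor, the receptor recruits adaptors that switch on Ras, and Raf, MEK and ERK then act in sequence. Cells limit this signal by inducing inhibitors of the same route. Errfi1, also known as RALT, binds the kinase domain of the EGF receptor family. Sprouty proteins act between the receptor and Raf. Spred proteins hold back Ras and recruit neurofibromin to the membrane. Phlda1 and Phlda3 are small pleckstrin homology domain proteins. Phlda1 has been described as restraining receptors of the EGF receptor family in human cells, and Phlda3 as a p53 target that competes with Akt for membrane lipids.

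The study asked which early transcripts PDGF induces in NIH 3T3 cells, and through which kinases. NIH 3T3 is an established line of mouse embryonic fibroblasts, used here as quiescent cells. The Src experiment has 8 arrays: PDGF at 25 ng/ml for 1 h, alone and with SU6656 (2 µM), UO126 (10 µM) or LY294002 (7.5 µM), and the same 3 inhibitors and vehicle without PDGF. Its repeat has 3 arrays: PDGF with SU6656, PDGF, and vehicle. The MEK experiment has 6 arrays: PDGF alone or with 1 of the inhibitors UO126 (10 µM) and PD98059 (7.5 µM), each inhibitor without PDGF, and untreated cells. Its PDGF time is not given in the sources used here. UO126 and PD98059 are inhibitors of MEK, SU6656 of Src family kinases and LY294002 of PI3K.

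Each condition had 1 array in an experiment. The labels do not say that arrays came from separate cultures, so the p-values reflect the spread between arrays alone, and that spread may be technical. The median signal of an array lay between 174.7 and 198.4 in the Src experiment, and between 134.1 and 156.25 on the arrays of the other design. The 3′ to 5′ ratio of the Gapdh control probe sets was 1.13 on the untreated array of the MEK experiment, against 0.788 to 0.907 on the other arrays of that table. The actin ratio was 1.47 on that array, within the 1.19 to 1.67 of the other arrays there. All 10 listed fibroblast markers, Pdgfrb among them, passed the filter on low values in both tables, at a median percentile of 99.8 and 98.8 among all probe sets by mean signal. Of the listed epithelial markers 2 of 5 passed in each table, of the leukocyte markers 3 of 5 and 2 of 5, and of the endothelial markers 2 of 4 and 1 of 4. Epcam, Krt19, Ptprc, Itgam and Tek did not pass in either table, whereas Krt18, Csf1r and Cd68 passed in both.

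From RefSeq (build GRCm38.p6), 7 promoters of 6 of the 8 genes were read as the 250 bases before each start. None was read for Spry4 or Phlda1. Promoters are shown for Errfi1, Spry2 and Spred1, which were called up with PDGF in the 8-array table, and for Spry1, which was not called. Spry2 and Spred1 were called at their brightest probe set alone, Spred1 by a narrow margin. Capitals mark letters that match a motif searched on both strands. The Errfi1 sequence lies at chr4:150854820-150855069 (plus strand), that of Spry2 at chr14:105896820-105897069 (minus strand), that of Spred1 at chr2:117120821-117121070 (plus strand) and that of Spry1 at chr3:37639697-37639946 (plus strand).
Errfi1: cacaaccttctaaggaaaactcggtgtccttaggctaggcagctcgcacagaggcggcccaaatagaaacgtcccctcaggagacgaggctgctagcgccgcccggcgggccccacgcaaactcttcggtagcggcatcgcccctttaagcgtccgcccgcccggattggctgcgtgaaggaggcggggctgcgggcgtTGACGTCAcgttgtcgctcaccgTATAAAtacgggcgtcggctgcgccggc
Spry2: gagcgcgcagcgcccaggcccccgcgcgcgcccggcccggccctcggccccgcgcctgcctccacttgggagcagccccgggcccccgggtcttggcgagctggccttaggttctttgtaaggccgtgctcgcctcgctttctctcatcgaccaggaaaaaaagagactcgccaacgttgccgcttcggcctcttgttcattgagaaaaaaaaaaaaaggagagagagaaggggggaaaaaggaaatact
Spred1: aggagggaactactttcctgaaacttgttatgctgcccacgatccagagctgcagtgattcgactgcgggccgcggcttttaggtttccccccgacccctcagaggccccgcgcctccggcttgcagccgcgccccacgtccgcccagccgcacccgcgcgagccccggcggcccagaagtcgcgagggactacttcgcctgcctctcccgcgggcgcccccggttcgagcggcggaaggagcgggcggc
Spry1: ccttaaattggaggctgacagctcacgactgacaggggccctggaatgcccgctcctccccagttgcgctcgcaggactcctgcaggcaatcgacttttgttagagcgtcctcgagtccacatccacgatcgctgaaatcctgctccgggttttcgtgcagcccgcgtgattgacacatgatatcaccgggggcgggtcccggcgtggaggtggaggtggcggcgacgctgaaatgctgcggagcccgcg
The Errfi1 stretch holds a full cyclic AMP response element, TGACGTCA, from 51 to 44 bases before the start, and a TATA box, TATAAA, from 28 to 23 bases before it. Of 32851 RefSeq promoters of this length, 1.55% held TGACGTCA, 12.4% held TATAAA and 0.119% held both. The other Errfi1 promoter (chr4:150853546-150853795, plus strand) held neither. None of the 7 promoters read held the AP-1 motif TGANTCA (6.75% of all promoters) or the EGR motif GCGNGGGCG (4.7%). None held the ETS motif CCGGAAG (6.91%) or the CArG box of serum response factor (1.47%), and no motif here overlaps another. The Errfi1 stretch had 64.8% G and C and 30 CpG sites, against medians of 52.4% and 6 over all promoters. The promoters of Spry2, which was called up with PDGF at its brightest probe set, and of Spry1, which was not called, each had 62.4% G and C and 23 CpG sites. A match describes letters, not a bound site, and a missing match says only that these letters are not in the window.

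Of the members tested, Errfi1 had the largest estimated PDGF effect in both tables. In total RNA of a culture, more responding cells and more RNA per cell cannot be told apart. At its brightest probe set in the 8-array table (1416129_at), the deposited signal was 7900.8 with PDGF alone, 4527.7 with SU6656 added, 3109.6 with UO126 added and 8410.1 with LY294002 added. Without PDGF it was 216.4 with vehicle, 195.4 with SU6656, 158 with UO126 and 257.3 with LY294002. Every PDGF array lay far above every array without PDGF. The share of all probe sets whose arrays separate by PDGF was not counted, here or for the genes below. Over the 4 pairs of arrays, Errfi1 rose by a log2 of 4.57 (SE 0.147, limma adjusted p = 2.83e-07), or 23.7-fold. Adjusted p-values here are Benjamini-Hochberg values over all probe sets past the filter, with a threshold of 0.05. At its other probe set (1419816_s_at) the rise was a log2 of 3.66 (SE 0.269, adjusted p = 5.92e-05 in limma).

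Errfi1 was likewise high with PDGF in the 9-array table. At 93975_at in the MEK experiment the signal was 6828.1 with PDGF alone, 2122.1 with UO126 added and 3122.7 with PD98059 added, against 245.6 with UO126, 245.1 with PD98059 and 281.6 in untreated cells. The repeat of the Src experiment had 3968 with PDGF and SU6656, 7428.8 with PDGF, and 312.9 with vehicle. Again no array without PDGF reached a PDGF array. Errfi1 rose by a log2 of 3.86 (SE 0.235, limma adjusted p = 8.64e-06) at 93975_at and of 3.55 (SE 0.409, adjusted p = 0.000931 in limma) at 93974_at. PDGF alone over untreated or vehicle cells was 22.4-fold to 32.9-fold across the 3 experiments.

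Among the Sprouty genes only Spry2 was called, and only at 1 of its 2 probe sets. Spry2 at 1436584_at had signals of 2074.1 with PDGF alone, 1547.9 with SU6656 added, 1419 with UO126 added and 1809.7 with LY294002 added. Without PDGF they were 355 with vehicle, 182.8 with SU6656, 159.8 with UO126 and 492.3 with LY294002. The groups did not overlap, and the lowest PDGF array was still well above the LY294002 array, the highest without PDGF. Spry2 rose by a log2 of 2.53 (SE 0.175, limma adjusted p = 4.28e-05), or 5.78-fold. The dimmer probe set, 1421656_at, read 151.3, 58.4, 57.3 and 174.7 with PDGF (alone, SU6656, UO126 and LY294002), against 134.5, 72.7, 105.4 and 43.4 without it. Its groups overlapped and its estimate was 0.28 (95% interval −0.41 to 0.96), so the probe sets of Spry2 disagree. The 9-array table holds no Spry2 probe set used here.

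Spry1 had lower signals with PDGF. Its signal was 187.2 with PDGF alone, 152.9 with SU6656 added, 191.9 with UO126 added and 203.3 with LY294002 added, against 259 with vehicle, 232 with SU6656, 354.4 with UO126 and 255.9 with LY294002. All 4 PDGF arrays lay below all 4 arrays without PDGF. The log2 estimate of −0.41 (95% interval −0.73 to −0.09) did not pass the threshold over all probe sets (limma adjusted p = 0.188). Its unadjusted limma p was 0.0176, and 16.4% of all probe sets had one under 0.05. The share of all probe sets that separate in this way was not counted.

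Spry4 was dim in the 8-array table, with signals of 8.3 to 35 over its 2 probe sets, and did not pass the filter there. Without the filter its PDGF estimate in that table was 0.26 (limma adjusted p = 0.558). In the MEK experiment its signal was 328.7 with PDGF alone, 219.8 with UO126 added and 340.8 with PD98059 added, against 345.8 with UO126, 287.1 with PD98059 and 325.6 in untreated cells. In the repeat it was 419.5 with PDGF and SU6656, 440.8 with PDGF and 265.1 with vehicle. The values varied between experiments, and PDGF over control was a log2 of −0.02 in the MEK experiment and 0.75 in the repeat. The PDGF effect on Spry4 was 0.11 (95% interval −0.34 to 0.56) and was not called.

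**Figure D1:**
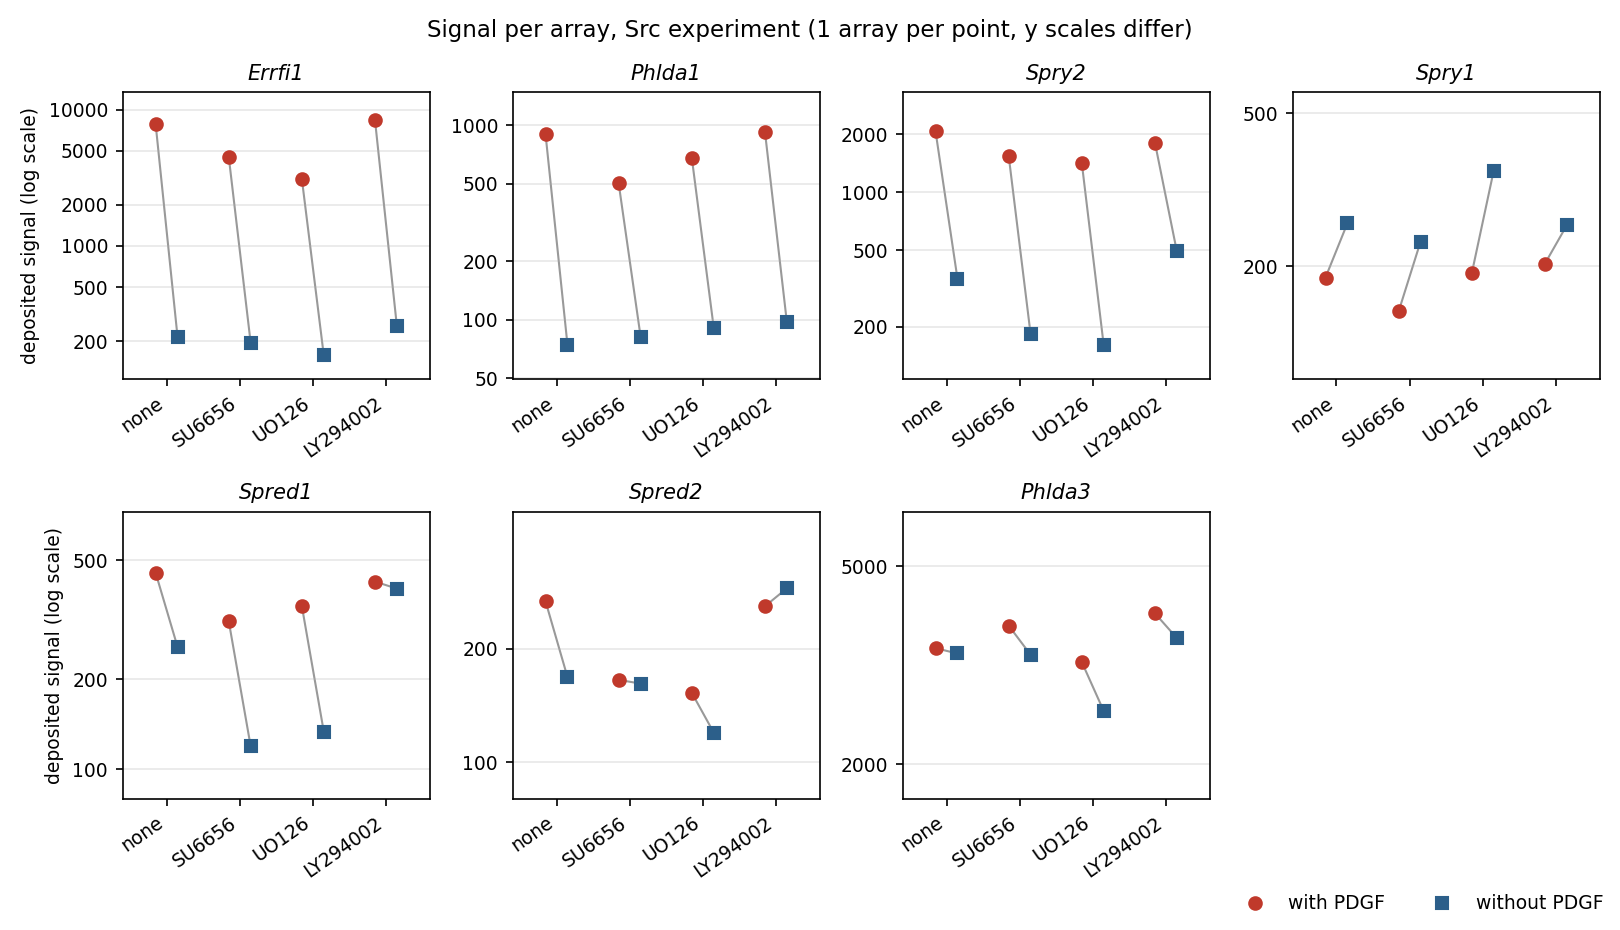
Deposited signal of 7 genes on the 8 arrays of the Src experiment, brightest probe set of each gene, 1 array per point, on a log scale whose range differs between panels. Circles are arrays with PDGF and squares are arrays without it, joined within an inhibitor background. Errfi1, Phlda1 and Spry2 separate by PDGF in every background (Errfi1 3109.6 to 8410.1 with PDGF, 158 to 257.3 without). Spry1 is lower with PDGF in 4 of 4 pairs but was not called. How many of all probe sets separate by PDGF was not counted.

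Of the Spred genes, Spred1 was called in the 8-array table by a narrow margin. At its brightest probe set (1423161_s_at) the signal was 454.6 with PDGF alone, 313.4 with SU6656 added, 351.6 with UO126 added and 424.3 with LY294002 added. Without PDGF it was 256.9 with vehicle, 119.6 with SU6656, 133.8 with UO126 and 401.9 with LY294002. The groups overlapped through the LY294002 array, where this probe set was nearly as high without PDGF as with it. In the same background 1423160_at read 346.6 with PDGF and 154.8 without it, and 1423162_s_at read 148.2 and 89.6. The probe set 1423161_s_at, by its suffix, can match more than 1 transcript. Spred1 rose by a log2 of 0.88 (SE 0.2, limma adjusted p = 0.0473), with 0.55 and 0.83 at the other probe sets, which were not called. The call was lost without any 1 of the vehicle, PDGF, SU6656, UO126, PDGF with SU6656 or PDGF with UO126 arrays (adjusted p 0.146 to 0.188 in limma). It was also lost without a filter on low values (0.124), without the pair as a block (0.214), without the variance trend (0.174) and with a 5th percentile pseudocount (0.0541).

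Spred2 had signals of 267.6 with PDGF alone, 165.5 with SU6656 added, 152.8 with UO126 added and 259.7 with LY294002 added. Without PDGF it had 168.3 with vehicle, 161.7 with SU6656, 119.8 with UO126 and 289.9 with LY294002. High values sat in both groups, on the vehicle-background PDGF array and on both LY294002 arrays. The PDGF effect on Spred2 was 0.29 (95% interval −0.10 to 0.68) in the 8-array table and 0.36 (95% interval −0.01 to 0.73) in the 9-array table, where PDGF was higher in 4 of 4 pairs. Neither was called. PDGF alone over control in the 3 experiments averaged a log2 of 0.49 ± 0.16 (SD, n = 3 experiments, which do not share an array design).

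Phlda1 was higher with PDGF in all 4 pairs of each table. In the 8-array table its signal was 896 with PDGF alone, 500.9 with SU6656 added, 677.9 with UO126 added and 924.1 with LY294002 added. Without PDGF it was 74.1 with vehicle, 81.6 with SU6656, 90.7 with UO126 and 96.9 with LY294002. The arrays without PDGF were tightly grouped and lay below all PDGF arrays. Phlda1 rose by a log2 of 2.71 (SE 0.157, limma adjusted p = 1.43e-05), or 6.54-fold. PDGF alone over control in the 3 experiments averaged a log2 of 3.75 ± 0.57 (SD, n = 3 experiments), and 4.12 ± 0.46 from the deposited values. The experiments span 2 array designs, so the SD also holds differences between designs.

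In the MEK experiment the signal of Phlda1 was 2477.4 with PDGF alone, 1132.9 with UO126 added and 741.3 with PD98059 added, against 129 with UO126, 83.5 with PD98059 and 123.2 in untreated cells. The repeat had 651 with PDGF and SU6656, 1345.3 with PDGF and 61.7 with vehicle. Here, too, the groups did not overlap. Phlda1 rose by a log2 of 3.47 (SE 0.231, limma adjusted p = 1.71e-05), with an interval of 2.95 to 3.98 that overlaps that of Errfi1 (3.34 to 4.39).

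Phlda3, of the same family, was not called in either table. Its 8-array signals were 3420.8, 3796.8, 3208.4 and 4018.9 with PDGF (alone, SU6656, UO126 and LY294002), against 3338.1, 3318.9, 2559.1 and 3584.3 without PDGF. The ranges overlapped. In the MEK experiment Phlda3 had 1301.8 with PDGF alone, 1426.3 with UO126 added and 1720.8 with PD98059 added, against 1218.2 with UO126, 2160.8 with PD98059 and 1895.7 in untreated cells. The repeat had 2437.2 with PDGF and SU6656, 3265.5 with PDGF and 2886.3 with vehicle. Its PDGF effect was 0.12 (95% interval −0.03 to 0.26) in the 8-array table and −0.13 (95% interval −0.43 to 0.17) in the 9-array table.

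**Figure D2:**
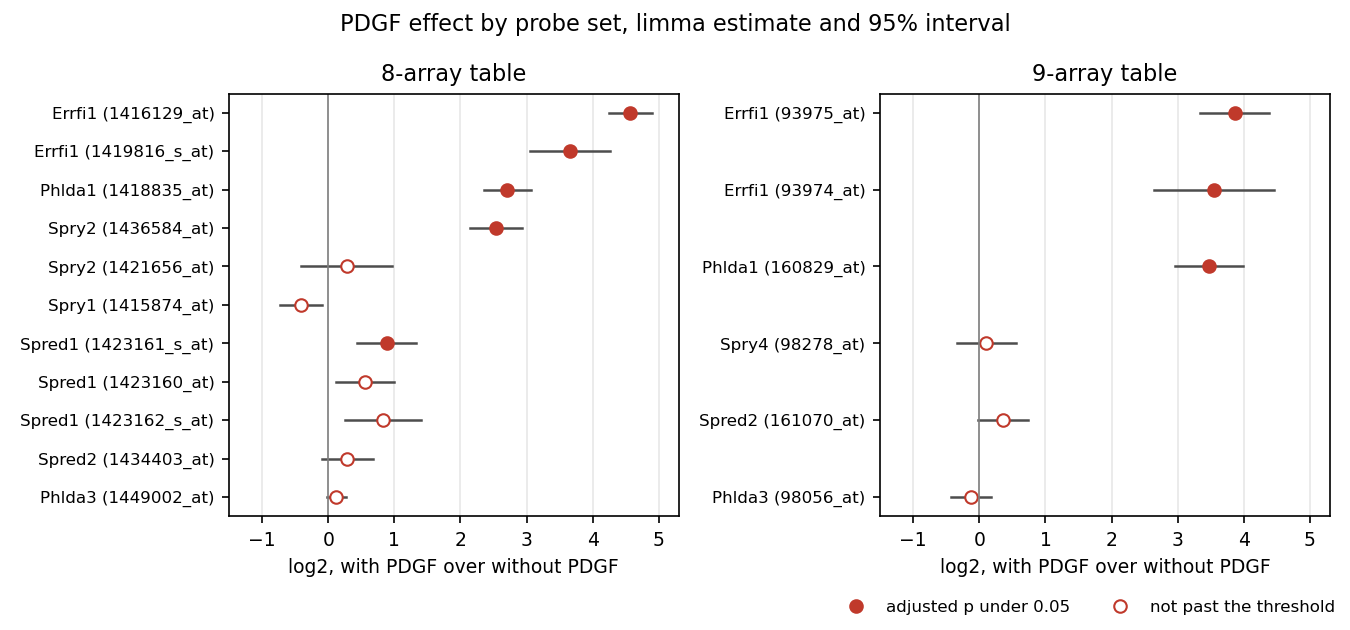
PDGF effect (log2, arrays with PDGF over arrays without it) of each member probe set past the filter, with the 95% interval from limma, in the 8-array table (left) and the 9-array table (right). Filled points passed an adjusted p of 0.05 and open points did not. Errfi1 lies at 3.55 to 4.57 and Phlda1 at 2.71 and 3.47, while the 2 Spry2 probe sets lie at 2.53 and 0.28.

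In all, 4 of 7 member genes rose with PDGF in the 8-array table (Errfi1, Spry2, Spred1 and Phlda1), where 2.5% of all probe sets rose. Of 5 members in the 9-array table, 2 rose (Errfi1 and Phlda1), where 1.43% of all probe sets rose. At the level of genes, 3.3% and 1.85% were called in either direction. Spred1 passed the threshold by a narrow margin. The members were chosen with earlier results of these data known, so setting these counts beside those shares is not a test. No member fell in limma in either table, and Spry1 was the only member with a negative estimate at an unadjusted p under 0.05. The median log2 PDGF effect of the members was 0.88 in the 8-array table and 0.36 in the 9-array table, against −0.05 and −0.04 over all genes. The PDGF fits take the pair (same experiment and same inhibitor) as a block with 3 residual degrees of freedom, and pairs that respond unequally add to that residual.

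Genes related to the members were counted in the same PDGF fits, in which 3.3% of all genes were called in the 8-array table and 1.85% in the 9-array table. Of other inhibitors of receptor tyrosine kinase and Ras signalling (Cbl, Lrig, Dok and Rasa genes and others), 0 of 23 were called with PDGF in the 8-array table and 0 of 12 in the 9-array table in limma, with 3 and 3 at an unadjusted p under 0.05 and medians of −0.02 and 0.09. Over all probe sets 16.4% and 13.3% had an unadjusted p under 0.05, so these counts do not set the inhibitors apart. Of components from the receptor to ERK and PI3K, 0 of 27 and 1 of 24 were called, with 3 and 3 at an unadjusted p under 0.05. The called gene was Pdgfra, a PDGF receptor, which fell by 0.65 on the log2 scale (SE 0.116, limma adjusted p = 0.0189). Of 14 listed transcripts used as readouts of ERK output, 10 passed the filter in each table and 7 of these rose. In the 8-array table the leading ones were the ERK phosphatase Dusp6 (log2 3.40), the transcription factors Egr1 (3.31) and Fosl1 (3.23), and the receptor Epha2 (2.60). In the 9-array table they were Dusp6 (4.03), the early response gene Ier3 (3.53), Egr1 (3.25) and Fosl1 (3.02).

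**Figure D3:**
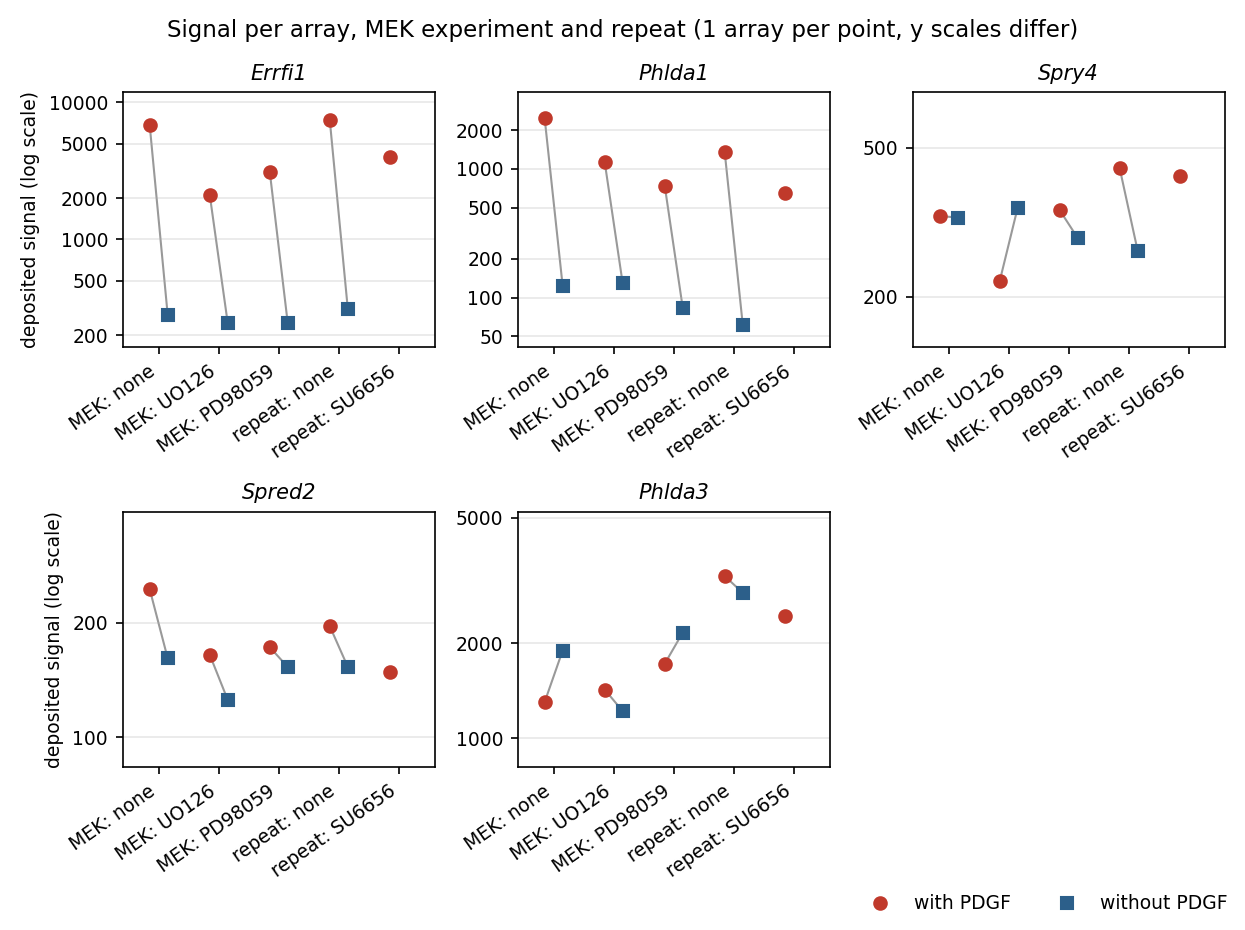
Deposited signal of 5 genes on the 9 arrays of the MEK experiment and the repeat of the Src experiment, brightest probe set of each gene, 1 array per point, on a log scale whose range differs between panels. Circles are arrays with PDGF and squares are arrays without it, joined within a background; the PDGF with SU6656 array has no partner. Phlda1 reaches 1132.9 on the PDGF array with UO126, 741.3 on that with PD98059 and 2477.4 on that with PDGF alone in the MEK experiment.

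Under PDGF, Errfi1 signal was lower with SU6656, UO126 and PD98059 than with PDGF alone, on each of 5 arrays. PDGF with SU6656 over PDGF was a log2 of −0.80 in the Src experiment and −0.77 in the repeat. PDGF with UO126 over PDGF was −1.41 in the Src experiment and −1.75 in the MEK experiment, and PDGF with PD98059 over PDGF was −1.21. PDGF with LY294002 over PDGF was 0.04. SU6656 and UO126, each used in 2 experiments, gave values of the same sign both times, and Errfi1 with PDGF and LY294002 was near its level with PDGF alone. The increase of Errfi1 signal by PDGF under an inhibitor was 56.4% of the increase without it for SU6656, 38.4% for UO126 and 106% for LY294002 in the Src experiment. In the MEK experiment it was 28.7% for UO126 and 44.0% for PD98059. Errfi1 was still above the array without PDGF under each inhibitor with a partner array, 16.5-fold with UO126 in the Src experiment (5.39-fold at 1419816_s_at) and 7.62-fold in the MEK experiment (3.25-fold at 93974_at). The log2 ratios over PDGF given above are of the brightest probe sets. At 93974_at they had the same sign but other sizes. They were −0.36 for SU6656 in the repeat, and −2.14 for UO126 and −0.80 for PD98059 in the MEK experiment.

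Phlda1 signal under PDGF was also lower with SU6656, UO126 and PD98059 on each of 5 arrays. PDGF with SU6656 over PDGF was −0.78 in the Src experiment and −1.05 in the repeat. PDGF with UO126 over PDGF was −0.37 in the Src experiment and −1.12 in the MEK experiment, and PDGF with PD98059 over PDGF was −1.71. PDGF with LY294002 over PDGF was 0.04, as for Errfi1. The value for UO126 was thus smaller in size in the Src experiment than in the MEK experiment, with no replicate in either. The PDGF increase of Phlda1 signal under an inhibitor was 51.0% of that without it for SU6656 and 71.4% for UO126 in the Src experiment, and 42.6% for UO126 and 27.9% for PD98059 in the MEK experiment. These ratios rest on 1 array each and share the PDGF array within an experiment. Spred2 was also lower on each of these 5 arrays at its brightest probe sets. Its log2 ratios were −0.61 to −0.58 in the Src experiment and −0.45 to −0.32 on the arrays of the other design. In the Src experiment Spred1 was lower too, at −0.49 with SU6656 and −0.31 with UO126 (1423161_s_at). The share of all probe sets lower on all of these arrays was not counted.

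For Spry2 at 1436584_at the signal with SU6656 or UO126 was lower both with and without PDGF. PDGF with SU6656 over PDGF was −0.39, PDGF with UO126 over PDGF −0.53 and PDGF with LY294002 over PDGF −0.17. Without PDGF, SU6656 over vehicle was −0.86, UO126 over vehicle −1.05 and LY294002 over vehicle 0.46. SU6656 and UO126 thus had larger ratios in size without PDGF than with it at this probe set. At 1421656_at of Spry2 they were smaller without PDGF, −0.68 for SU6656 and −0.37 for UO126, against −0.98 and −0.93 with it. The fold of PDGF over the same background was 7.54 with SU6656 and 7.80 with UO126, 3.50 with LY294002 and 5.43 without an inhibitor. Spred1 at its brightest probe set had the same order of folds, 2.39-fold with SU6656, 2.56-fold with UO126, 1.08-fold with LY294002 and 1.76-fold without an inhibitor. Other probe sets did not share this order: LY294002 gave the highest fold at 1421656_at of Spry2 (2.62) and at 1423160_at of Spred1 (2.03).

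**Figure D4:**
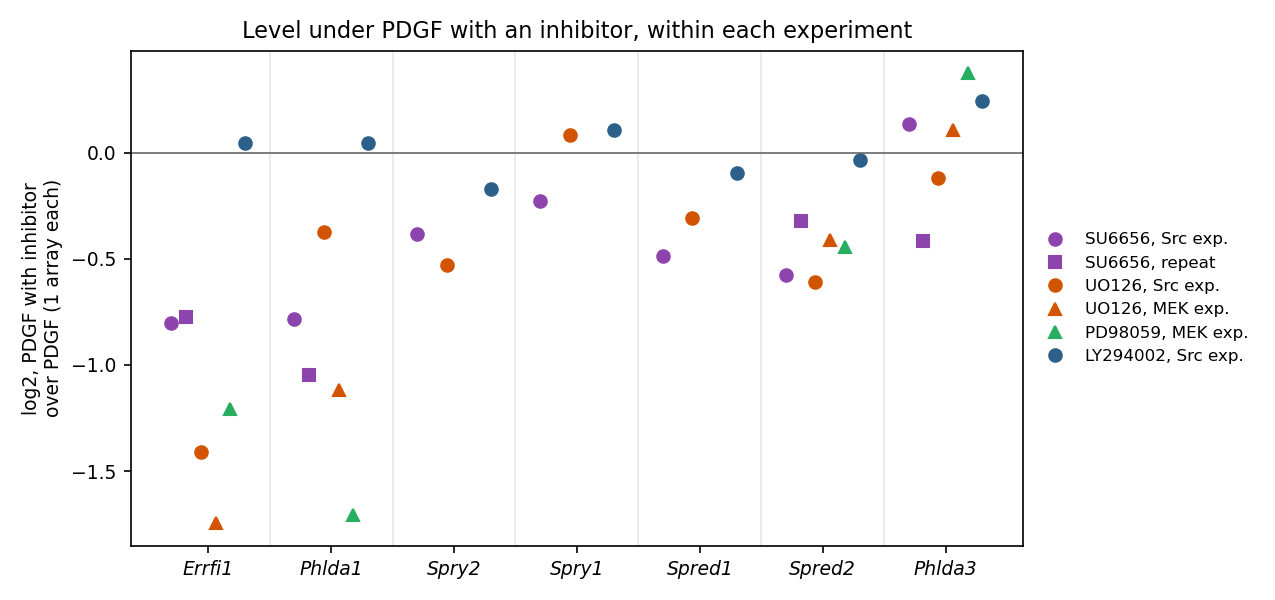
Log2 ratio of PDGF with an inhibitor over PDGF alone within an experiment, for the brightest probe set of 7 genes, 1 array over 1 array per point. Colours mark the inhibitor and shapes the experiment (Src experiment, repeat, MEK experiment). Errfi1 lies between −0.77 and −1.75 with SU6656, UO126 and PD98059 and at 0.04 with LY294002.

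Inhibitor effects were tested in the 8-array table over 2 arrays with an inhibitor against the 2 arrays without one, with PDGF as a term. Each estimate averages the effect with and without PDGF, and a difference between these goes to the residual. For UO126 the log2 without and with PDGF was −0.41 and −1.41 for Errfi1, but −1.05 and −0.53 for Spry2. The lack of a call therefore does not describe the effect under PDGF alone. No member was called in limma for SU6656 (0 of 7, where 0.107% of all probe sets were called), UO126 (0 of 7, 0.0442%) or LY294002 (0 of 7, 0.511%). At an unadjusted p under 0.05 the numbers were 2 for SU6656 (Spry2 and Spred1), 3 for UO126 (Errfi1, Spry2 and Phlda3) and 0 for LY294002, where 8.02%, 9.05% and 13.3% of all probe sets had one. With each array left out in turn, the calls over all probe sets were 0 to 19 for SU6656 (17 with all arrays), 0 to 8 for UO126 (7) and 4 to 106 for LY294002 (81). For UO126, the estimate was −0.91 for Errfi1 (95% interval −1.38 to −0.45), −0.79 for Spry2 (−1.34 to −0.23) and −0.15 for Phlda1 (−0.65 to 0.35). These unadjusted intervals, at the brightest probe sets, leave out 0 for Errfi1 and Spry2 but not for Phlda1. A difference between genes was not tested. At the other probe sets the UO126 interval included 0 for Errfi1 (1419816_s_at, −1.58 to 0.13) and for Spry2 (1421656_at, −1.62 to 0.32). For SU6656 the estimate was −0.46 for Errfi1 (−0.93 to 0.0029), −0.62 for Spry2 (−1.18 to −0.07) and −0.71 for Spred1 (−1.34 to −0.07). Elsewhere the SU6656 interval included 0 at 1421656_at of Spry2 (−1.80 to 0.14) and at 1423162_s_at of Spred1 (−1.28 to 0.36). At 1423160_at of Spred1 the estimate was −1.09 (−1.71 to −0.47, limma adjusted p = 0.384). For LY294002 the estimate at the brightest probe sets was 0.15 for Errfi1 (−0.32 to 0.62), 0.15 for Spry2 (−0.41 to 0.70) and 0.17 for Phlda1 (−0.33 to 0.67).

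**Figure D5:**
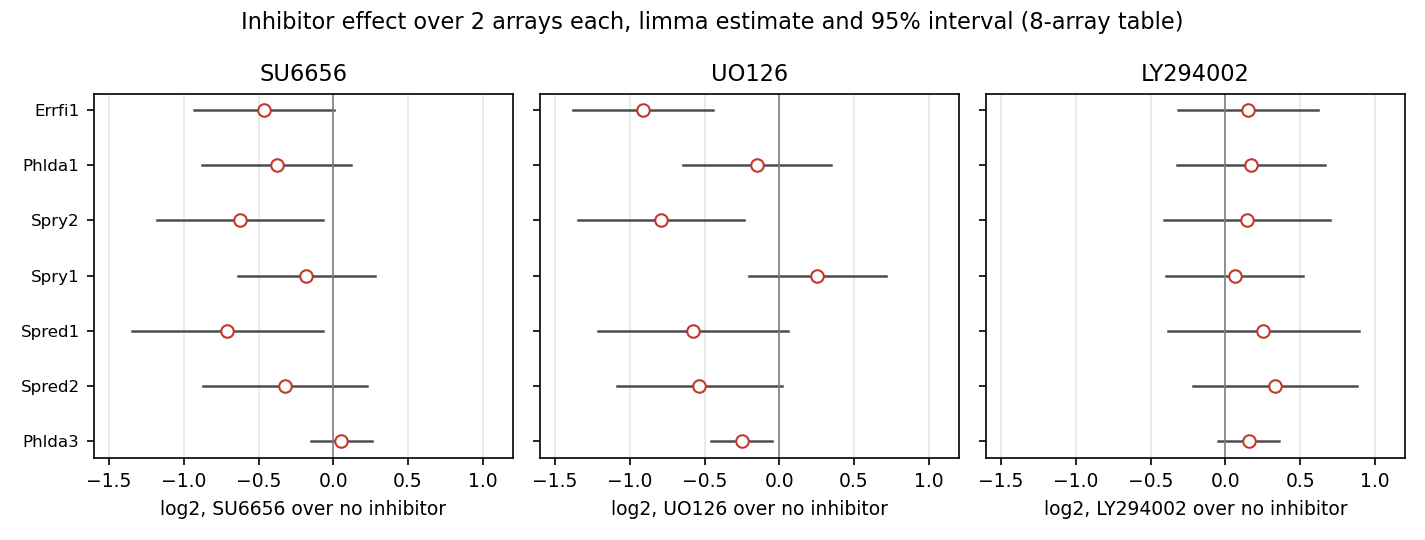
Inhibitor effect (log2, 2 arrays with the inhibitor over 2 arrays without one, PDGF as a term) for 7 genes in the 8-array table, with the 95% interval from limma, for SU6656, UO126 and LY294002. All points are open because none passed an adjusted p of 0.05. Errfi1 lies at −0.46, −0.91 and 0.15.

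The inhibitors were also compared with each other. Errfi1 was lower with UO126 than with LY294002, with a log2 difference of −1.06 (SE 0.208, limma adjusted p = 0.0443), and was the 1 of 7 member genes called, where 1.4% of all probe sets were called. Those 222 calls became 15 without the LY294002 array, 30 without PDGF with LY294002, 50 without UO126, 97 without PDGF with UO126, 123 without vehicle and 124 without PDGF. At 1416129_at Errfi1 was lower with UO126 in both pairs, at 3109.6 against 8410.1 with PDGF and at 158 against 257.3 without it. At 1419816_s_at it was lower with PDGF, at 1380.2 against 4426.6, but not without it, at 231.4 against 192.9. The call was lost without any 1 of the LY294002, PDGF with LY294002, PDGF with UO126, SU6656 or PDGF with SU6656 arrays (adjusted p 0.0593 to 0.293 in limma), and the estimate at 1419816_s_at was −0.73 (adjusted p = 0.41). The estimate was −0.94 for Spry2 (95% interval −1.49 to −0.38, limma adjusted p = 0.11), −0.87 for Spred2 (95% interval −1.42 to −0.32, limma adjusted p = 0.129), −0.83 for Spred1 (limma adjusted p = 0.2) and −0.41 for Phlda3 (95% interval −0.61 to −0.20, limma adjusted p = 0.0696). In all 5 of 7 had an unadjusted p under 0.05, as had 15.2% of all probe sets. Between UO126 and SU6656 no member was called in limma (0 of 7, where 0.215% of all probe sets were called), with 1 at an unadjusted p under 0.05 (Phlda3), as had 9.67% of all probe sets. The difference for Errfi1 was −0.45 (95% interval −0.92 to 0.02) and that for Phlda1 0.23 (95% interval −0.27 to 0.73). Outside the members, Dusp6 (−1.72) and the receptor Fgfr1 (−0.50) were also called lower with UO126 than with LY294002.

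In the 9-array table UO126 and PD98059 were both counted as MEK inhibition. The fit shared its PDGF term between the MEK experiment and the repeat of the Src experiment. Its estimates are thus not the mean ratios within the MEK experiment alone. For Phlda3 under PDGF it gave 0.07, where the ratios over PDGF in the MEK experiment were 0.11 with UO126 and 0.37 with PD98059. Under PDGF no member was called in limma (0 of 5), where 0% of all probe sets were called and 625 of 8695 had an unadjusted p under 0.05. Errfi1 came closest, with a log2 of −1.47 (SE 0.213, 95% interval −1.94 to −0.996, limma adjusted p = 0.0679) at 93975_at. There it passed the threshold with the lowest 50% of probe sets left out (adjusted p = 0.0335 in limma). It did not pass without a filter on low values or without the variance trend. At its other probe set, 93974_at, the estimate was −1.37 (adjusted p = 0.452 in limma). With each array left out, the estimate at 93975_at was −1.74 to −1.20. Phlda1 had −1.41 (95% interval −2.02 to −0.79, limma adjusted p = 0.237). These 2 were the members with an unadjusted p under 0.05.

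Without PDGF no member was called for MEK inhibition in limma (0 of 5, where 0.0115% of all probe sets were called), and 0 had an unadjusted p under 0.05 at the brightest probe set, as 7.21% of all probe sets had. Errfi1 had −0.20 (95% interval −0.67 to 0.28) at 93975_at. Its other probe set, 93974_at, read 273.1 with UO126 and 269.8 with PD98059, against 124.3 in untreated cells, an estimate of 0.91 (95% interval 0.06 to 1.75, unadjusted p = 0.0382, limma adjusted p = 0.659). The untreated array is the one whose Gapdh 3′ to 5′ ratio stood at 1.13, though its actin ratio did not stand apart, and its part in this value was not tested. For the interaction of PDGF with MEK inhibition no member was called in limma (0 of 5, where 0% of all probe sets were called), with estimates of −1.27 for Errfi1 (95% interval −1.87 to −0.67) and −1.22 for Phlda1 (95% interval −1.996 to −0.43), both at an unadjusted p under 0.05, as had 4.91% of all probe sets.

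For each member called with PDGF in the 8-array table, the 3 non-member genes with the most similar profile over the 8 arrays were found. The measure was the root mean square difference of centred log2 values, at brightest probe sets past the filter. Other members were left out of this search. For Errfi1 they were Btg2 (0.39), an antiproliferative factor, the nuclear receptor Nr4a1 (0.43) and the zinc finger factor Egr2 (0.51). For Phlda1 they were the pseudokinase gene Trib1 (0.28), the AP-1 gene Junb (0.30) and Hbegf (0.33), an EGF receptor ligand. For Spry2 they were the kinase gene Sgk1 (0.23), the receptor Epha2 (0.35) and Socs3 (0.41), an inhibitor of cytokine signalling. For Spred1 they were Slc6a5 (0.15), a glycine transporter, the pseudokinase gene Trib2 (0.17) and Podxl (0.21), a sialomucin. Smaller values mean more similar profiles, and the 8 arrays share their treatments and normalisation.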

How the data were processed

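RNA of NIH 3T3 cells was measured on 17 one-colour oligonucleotide arrays of 2 designs, which fill a table of 8 arrays and a table of 9. The deposited values are linear intensity, with 1 value per probe set for each array. The authors had scaled this intensity to a common level, since its mean after trimming 2% at each end was 500.2 on the 8 arrays and 500.3 to 500.4 on the 9 arrays. The software behind them is not given in the sources used here.

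Groups came from the sample titles and descriptions. Probe sets were named through the platform annotation, with RefSeq's current symbols. Control probe sets were left out, which left 22626 and 12422. After quantile normalisation within a table, its 20th percentile (36.3 and 21.2) was added before taking log2, which understates fold changes of dim probe sets. Dropping the lowest 30% by mean kept 15838 and 8695 probe sets. A gene is represented by its brightest probe set. Levels were not compared between genes or tables. Tests used limma 3.58.1 (R 4.3.3; lmFit, eBayes with a trend), tested on simulated data, and p-values were adjusted over all probe sets kept. Precision is limited by how few arrays there are.

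PDGF effects used 4 pairs per table with the pair as a block; a pair is defined by the labels as the arrays of 1 experiment and 1 inhibitor. The 9-array PDGF fit left out the PDGF with SU6656 array of the repeat, which has no partner. The 9-array inhibitor fit had PDGF, experiment, SU6656, MEK inhibition and its interaction with PDGF as terms, so its residual also holds differences between UO126 and PD98059. Its PDGF term is shared by the MEK experiment and the repeat, so a difference between their PDGF responses enters its residual and its estimates. Other normalisation, pseudocounts, filters, variance models, probe sets and each array left out were tried.

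Genes named with a result are the 8 members, the 3 most similar non-members of each member called with PDGF, and at most 4 called genes per pathway list and comparison. Marker and control genes and gene families are named only to say what was checked or listed. The members, lists and tests were chosen with earlier results of these data known. Promoters are from RefSeq, GRCm38.p6, read 5′ to 3′.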

Additional observations from a re-analysis of the deposited data

How the results depend on the processing

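Errfi1 and Phlda1 kept their PDGF calls in both tables, and Spry2 in the 8-array table, under every alternative fit at the brightest probe set. Spry2 lost it at its dimmer probe set. Without the pair as a block (no replicate block) 3 member genes in place of 4 rose in the 8-array table, Spred1 being lost, and 2 in the 9-array table, as with the block. With each array left out, 262 to 385 probe sets changed with PDGF in the 8-array table, against 525. Under scaling to a common median 578 probe sets rose with PDGF in the 8-array table, against 396, and 4 members were called as before. MEK inhibition under PDGF called 1 member, Errfi1, with the lowest 50% of probe sets left out, and 0 to 1 with each array left out. UO126 minus LY294002 called 0 without a filter on low values, 0 without the variance trend and 0 with a 40th percentile pseudocount, and 0 to 1 with each array left out; fewer arrays or more probe sets tested enter some of these fits, and the cause was otherwise not tested.

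Small uncalled log2 estimates changed sign. At other probe sets the values were 0.91 for Errfi1 (MEK inhibition without PDGF, 93974_at), and −0.43 (LY294002) and 0.18 (UO126 minus SU6656) for Spry2 (1421656_at). Spry4 had a PDGF effect of −0.11 in the MEK experiment alone. With each array left out, LY294002 gave −0.16 to 0.47 for Errfi1, −0.080 to 0.42 for Phlda1 and −0.34 to 0.63 for Spry2. Phlda1 had −0.44 to 0.059 for MEK inhibition without PDGF, −0.40 to 0.10 for UO126 and −0.060 to 0.52 for UO126 minus SU6656. Phlda3 had −0.44 to 0.24 for MEK inhibition under PDGF, −0.24 to 0.0065 for PDGF in the 9-array table and −0.044 to 0.15 for SU6656. Spry2 had −0.46 to 0.12 for UO126 minus SU6656, and Spry4 −0.11 to 0.33 for PDGF. The causes were not tested. Spry4 in the 8-array table, at 8.3 to 35 signal units, did not pass the filter on low values.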
